A study of Sus scrofa with 6 samples.

Results

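A set of 9 genes of the B cell receptor pathway were examined cell by cell in the ileum of suckling piglets: CD79A, CD79B, MS4A1, CD22, LYN, SYK, BTK, BLNK and PLCG2. The genes were taken by symbol. All 9 were found among the 20648 genes listed, and all 9 passed the filter on low counts in every test below. The series holds 6 single-cell RNA libraries from the 10x Genomics droplet system, 1 for each age of 0, 1, 3, 7, 14 and 21 days. The piglets were Large White, labelled male, kept on maternal milk and otherwise untreated, and the cells were those that EDTA and a short enzyme digestion freed from the ileal mucosa. Several piglets were sampled at each age, but how their cells were combined was not given in the sources used here, so the spread between piglets cannot be seen. The sample labels name the ileum, and the series' design line names the cecum. The files hold raw counts of unique molecular identifiers (UMIs, each standing for 1 captured RNA molecule). The libraries totalled 77391932 to 100348769 UMIs.

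A B cell recognizes antigen through a membrane immunoglobulin that has no signalling tail of its own. CD79A and CD79B form the pair that carries the signal across the membrane. LYN, a kinase of the Src family, phosphorylates their tails, SYK docks there, and the adaptor BLNK gathers BTK and PLCG2, whose product releases calcium. CD22 is an inhibitory receptor that recruits phosphatases through sites that LYN phosphorylates, and MS4A1 encodes the surface protein CD20. In the small intestine of the pig, Peyer's patches grow in the first weeks of life and consist largely of B cell follicles.

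Barcodes with at least 1000 UMIs and 500 genes were used, 76099 in all. They were sorted by a few genes that are no members. The B gate asked for at least 2 UMIs of PAX5 and POU2AF1 together, the T gate for 2 of CD3E and CD3G, the epithelial gate for 5 of EPCAM, KRT8 and VIL1, and the myeloid gate for 3 of CSF1R, CD14, CD163 and FCN1. The B gate held 44776 barcodes (58.8%), the T gate 4884, the epithelial gate 4090 and the myeloid gate 979. Another 1027 met more than 1 gate and were set apart, and 20343 (26.7%) met none. The B gate grew from 1502 barcodes on day 0 to 11866 on day 21, while the epithelial gate shrank from 2744 to 1. Between any pair of libraries 31 to 68 barcodes were shared, at most 0.508% of the smaller library.

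The gates matched independent markers, but each gate also held some UMIs of markers of other lineages. An 8-gene B list (which includes BANK1, TNFRSF13C, EBF1, SPIB, CD40, CD37 and CIITA) summed to 11.12 to 16.3 UMIs per 10000 in the B gate and to 1.68 to 2.95 in the T gate. The T list ran from 6.55 to 14.0 in the T gate and from 0.678 to 2.36 in the B gate. The epithelial list ran from 28.8 to 101 in its gate and the myeloid list from 42.6 to 128. The B list was at 3.81 to 4.53 in the myeloid gate and reached 4.99 in the epithelial gate on day 7. In the T gate the myeloid list was at 4.62 on day 0 and 2.16 on day 14. In the B gate, an erythroid list of 3 genes ranged from 0.0409 to 10.7 between libraries. Its part in the results was not tested. Levels below are a gene's UMIs per 10000 UMIs summed over a gate in a library, and 95% intervals, exact Poisson for levels and exact Clopper-Pearson for shares, cover counting error only.

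All 9 genes were higher in the B gate than in the T gate and than in the epithelial gate, and 7 of 9 were higher than in the myeloid gate. The exceptions were LYN and BTK. Gates were compared by edgeR's quasi-likelihood test on counts summed per library and gate, with the library as a block. The libraries are the replicates of this comparison, and sums needed 20 barcodes, which left 6 libraries for T, 5 for epithelial (not day 21) and 4 for myeloid (not days 7 and 21). A gene was called when its Benjamini-Hochberg adjusted p over 12467 genes was under 0.05 and its log2 fold change at least 1 in size. Against T, 8.68% of all genes were called higher and 9.1% lower. Against epithelial these were 18.6% and 27.4%, and against myeloid 11.1% and 15.7%. The median log2 fold change of the members was 3.75 against T (all genes 0.02), 4.81 against epithelial (all genes -0.04) and 2.25 against myeloid (all genes 0.10). With barcodes of more than 1 gate kept in each gate they met, all 9 were still called against T, but with smaller folds of 1.69 (PLCG2) to 3.14 (MS4A1), and all 9 against epithelial.

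**Figure D1:**
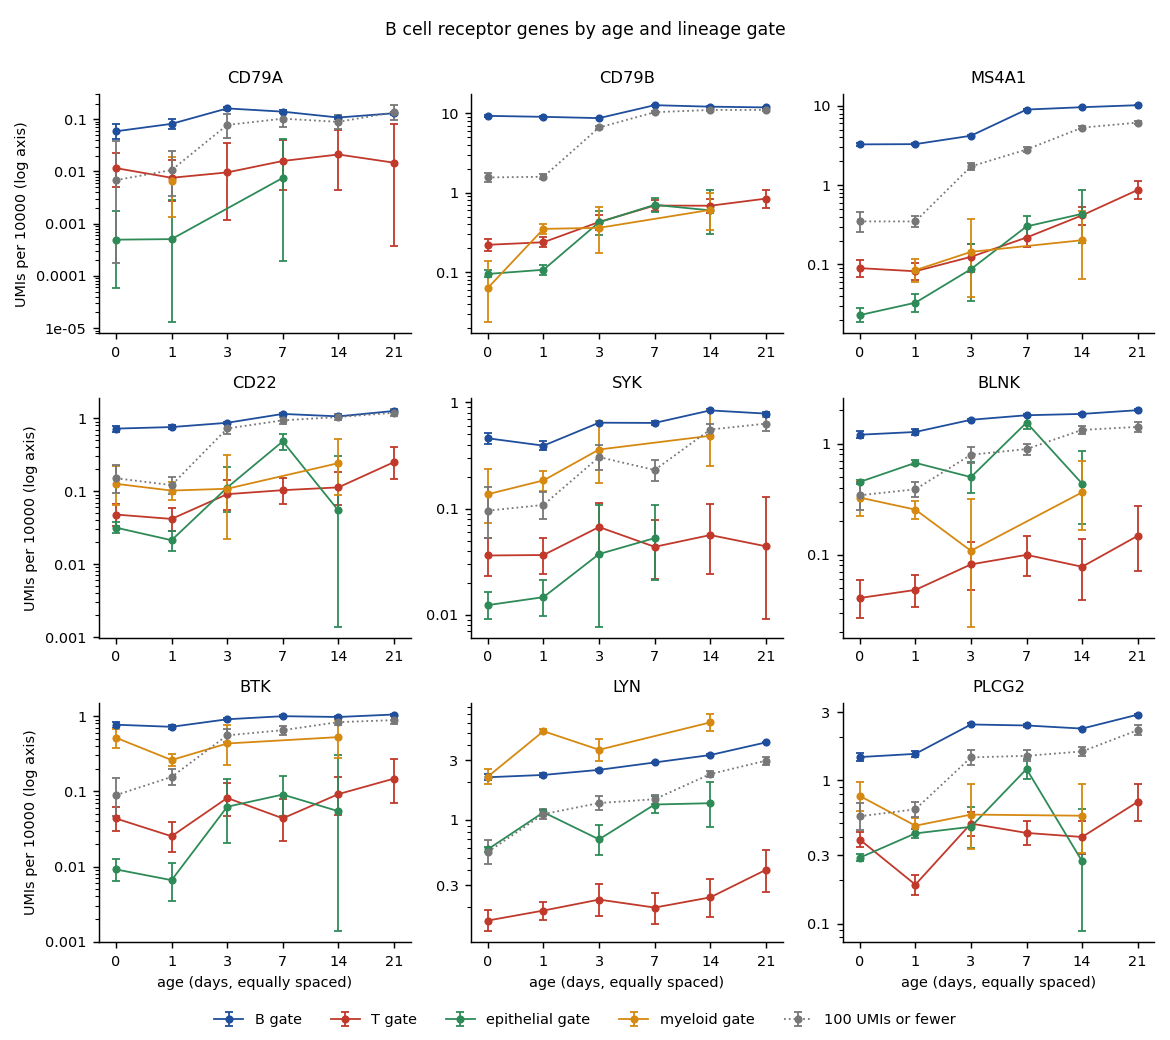
UMIs per 10000 (log axis) of each gene against age in days, equally spaced, for the B, T, epithelial and myeloid gates and for barcodes with 100 UMIs or fewer (dotted). Points are libraries, bars are 95% Poisson intervals, and gates with no UMI of the gene or under 20 barcodes are not drawn. Among the gates, B lies highest for each gene except LYN, where the myeloid gate lies at 2.22 to 6.03.

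The signalling pair was counted at very different depths for its 2 parts, CD79B and CD79A. CD79B in the B gate was at 9.27, 9.01, 8.68, 12.6, 12.1 and 11.8 UMIs per 10000 on days 0, 1, 3, 7, 14 and 21. In the T gate it was at 0.221, 0.237, 0.427, 0.688, 0.685 and 0.841. The ranges lie far apart, with every B value above every T value. How large a share of all genes shows no overlap between compared groups of barcodes was not counted, here or below. CD79B was found in 93.3% to 98.2% of B-gated barcodes and in 4.25% to 22.2% of T-gated barcodes, whose median UMI counts were 3492.5 to 4900 and 2583 to 4646. After thinning each barcode to 1000 UMIs the shares were 59.0% to 70.7% and 1.23% to 6.96%. Its log2 fold change was 4.71 ± 0.40 (SE) against T, 5.28 ± 0.47 against epithelial and 4.82 ± 0.51 against myeloid, with edgeR adjusted p = 1.78e-07, 8.36e-08 and 2.05e-06.

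CD79A was counted at 3180 UMIs over all B-gated barcodes, beside 284050 for CD79B, and levels of different genes were not compared, since capture at the 3′ end can differ between transcripts. The B gate had 0.0589, 0.0818, 0.162, 0.140, 0.108 and 0.130 UMIs of CD79A per 10000 on the 6 ages. The T gate had between 0.00758 and 0.0212, below every B value. Only 2.26% to 10.1% of B-gated barcodes held a UMI of it, against 0.367% to 0.853% in the T gate. CD79A was 3.12 ± 0.35 higher on the log2 scale than in T (edgeR adjusted p = 3.51e-06). It was also called against epithelial and myeloid, but these gates held 4 and 3 UMIs of it, so the fitted folds of 6.78 and 4.01 depend on the prior count and are no bound. On day 1, where all 3 myeloid UMIs fell, the B gate was 12.6 times the myeloid gate (95% interval 4.16 to 62.0). In the RefSeq table of Sscrofa11.1, CD79A has 1 transcript on chromosome 6 at 49996116 to 49999294, and CD79B lies on chromosome 12 at 15052966 to 15056441.

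MS4A1, the gene for CD20, had the largest fold against T. Its B-gate levels were 3.27, 3.29, 4.2, 8.98, 9.62 and 10.2 UMIs per 10000, and its T-gate levels 0.0899, 0.0821, 0.125, 0.219, 0.416 and 0.870. Every B value lay above every T value, although the T-gate levels were also highest at the late ages. The fold was 4.95 ± 0.44 on the log2 scale against T, 5.85 ± 0.52 against epithelial and 5.44 ± 0.59 against myeloid (edgeR adjusted p = 2.74e-07, 9.69e-08 and 2.67e-06), the last 6.18 without day 1. The last bases of the MS4A1 locus (chromosome 2, 11216238 to 11229060) overlap the annotated gene MS4A4A over 2915 bases. MS4A4A had 746 UMIs in the B gate, beside 206153 of MS4A1, and whether the counting used strand was not given in the sources used here.

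CD22, the inhibitory lectin of B cells, was at 0.723, 0.759, 0.869, 1.15, 1.06 and 1.26 UMIs per 10000 in the B gate. The T gate ran from 0.0417 to 0.251 and the myeloid gate from 0.102 to 0.243, both below the B range. Its log2 fold changes were 3.58 ± 0.42 against T, 3.47 ± 0.50 against epithelial and 2.28 ± 0.52 against myeloid (edgeR adjusted p = 6.59e-06, 1.34e-05 and 0.00256). The epithelial gate ranged from 0.0213 on day 1 to 0.483 on day 7, where the B marker list was also highest in that gate. Without day 7 the fold over epithelial was 4.48.

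LYN, the kinase that starts the relay and also feeds inhibitory receptors, was the only member with its highest levels in another gate. The myeloid gate had 2.22, 5.13, 3.64 and 6.03 UMIs of LYN per 10000 on days 0, 1, 3 and 14. On the same days the B gate had 2.19, 2.29, 2.52 and 3.30, so the gates were level on day 0 and the myeloid gate was higher on the other 3 days. Over the 4 libraries the fitted log2 fold change, B over myeloid, was -0.70 ± 0.22 (edgeR adjusted p = 0.0204), under the fold limit. LYN was found in 67.4% to 87.4% of myeloid-gated and 53.1% to 78.6% of B-gated barcodes. Against T it was 3.75 ± 0.21 higher (adjusted p from edgeR 3.23e-09), where the T gate ran from 0.157 to 0.398. Epithelial barcodes carried 0.582 to 1.36, and the fold against them was 1.54 ± 0.21 (edgeR adjusted p = 9.77e-06).

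SYK, the kinase that docks on CD79A and CD79B, was at 0.460, 0.392, 0.645, 0.642, 0.842 and 0.785 UMIs per 10000 in the B gate. In the myeloid gate it was at 0.137, 0.185, 0.361 and 0.486 on days 0, 1, 3 and 14, lower than the B gate of the same day each time. The fold over myeloid was 1.09 ± 0.27 (edgeR adjusted p = 0.00538), and it fell below the fold limit without day 0 (0.94) and when barcodes of more than 1 gate were kept (0.85, edgeR adjusted p = 0.0890). The T gate ran from 0.0363 to 0.0672 and the fold over it was 3.73 ± 0.24 (adjusted p in edgeR 1.13e-08). In epithelial barcodes SYK was at 0 on day 14 and at most 0.0528 elsewhere.

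BTK, the kinase that activates PLCG2, was at 1.49 to 2.77 times its myeloid level in the B gate, but was not called against myeloid. Its B-gate levels were 0.769, 0.721, 0.908, 0.998, 0.974 and 1.05 UMIs per 10000. The myeloid gate had 0.516, 0.261, 0.433 and 0.526, each below the B gate of its day. Over the 4 libraries the difference was 0.81 ± 0.41 on the log2 scale, which did not pass (edgeR adjusted p = 0.135). Against T the fold was 4.0 ± 0.39 and against epithelial 5.37 ± 0.51 (edgeR adjusted p = 7.89e-07 and 1.91e-07), the latter 4.77 without day 0 and 6.14 without day 7.

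BLNK, the adaptor, and LYN had the smallest folds over the epithelial gate. The epithelial gate had 0.451, 0.671, 0.499, 1.55 and 0.435 UMIs of BLNK per 10000 on days 0, 1, 3, 7 and 14. The B gate had 1.2, 1.27, 1.64, 1.80 and 1.85 on those days, always higher, and the ratio of the gates ranged from 1.16 to 4.26. The fold was 1.27 ± 0.26 (edgeR adjusted p = 4.18e-04), and 1.64 without day 7. BLNK was found in 21.1% to 56.1% of epithelial barcodes, whose median UMI counts were 4549 to 16362, and after thinning in 3.33% to 18.0%. In T-gated barcodes it ran from 0.0406 to 0.148, and the fold over T was 4.56 ± 0.28 (edgeR adjusted p = 5.41e-09). BLNK (chromosome 14, 107630477 to 107715421) overlaps ZNF518A over 3441 bases, and ZNF518A had 10420 UMIs in the B gate beside 45072 of BLNK.

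PLCG2, the phospholipase at the end of the relay, differed least from T. The B gate had 1.45, 1.53, 2.46, 2.42, 2.30 and 2.88 UMIs per 10000 and the T gate 0.386, 0.187, 0.499, 0.430, 0.402 and 0.708. The groups do not overlap, and the fold was 2.47 ± 0.25 (edgeR adjusted p = 9.76e-07). It was 2.09 ± 0.27 against epithelial and 1.5 ± 0.29 against myeloid (edgeR adjusted p = 4.37e-06 and 7.42e-04). The epithelial level was again highest on day 7, at 1.2, and the fold over epithelial was 2.53 without that day.

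**Figure D2:**
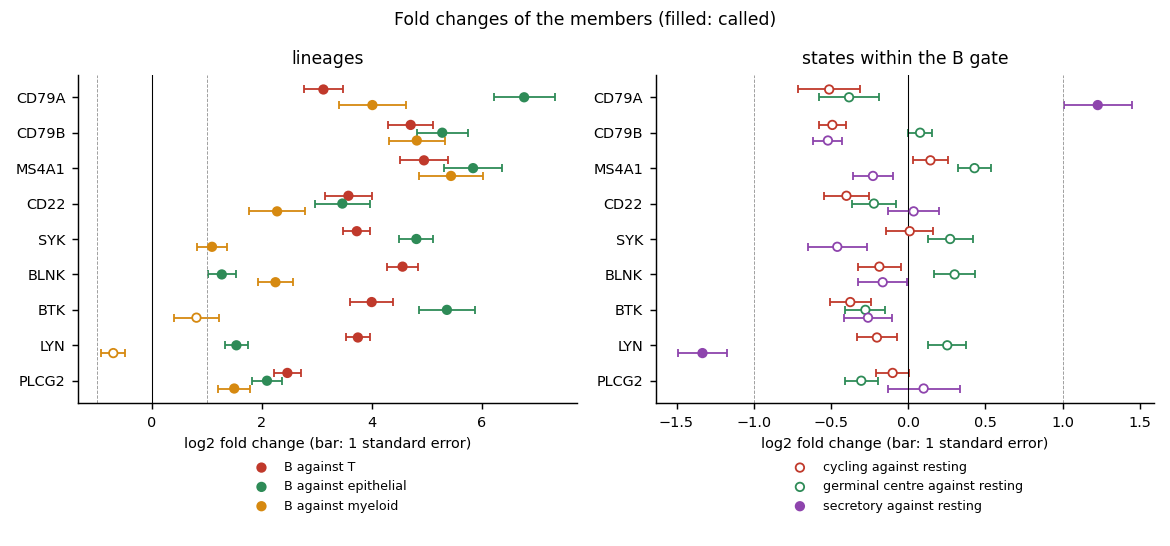
Fitted log2 fold changes of each gene with 1 standard error, for the B gate against other lineages (left) and for B cell states against the resting state (right). Filled points passed the adjusted p and the fold limit (dashed lines). All points at left are filled except BTK and LYN against myeloid, and at right only CD79A and LYN in the secretory state are filled.

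Barcodes with 100 UMIs or fewer were read as a measure of RNA outside cells. In them CD79B was at 1.55 UMIs per 10000 on day 0 and 11 on day 21, and MS4A1 at 0.349 and 6.15. The B gate lay above this level with intervals apart in 6 of 6 libraries for 7 members. The share of all genes that did so was not counted. At the late ages the margin was small: CD79B was 5.96 times the background on day 0 and 1.08 to 1.31 times from day 3 on. CD22 in the B gate was above it with intervals apart in 3 libraries, and its ratios on days 3, 14 and 21 were 1.2, 1.02 and 1.06, with intervals that overlap. CD79A likewise overlapped it on days 7, 14 and 21, at ratios of 1.36, 1.21 and 0.958. T-gated barcodes held less of CD79B than this background in all 6 libraries, at 0.0622 to 0.150 of it. Whether the UMIs in T-gated barcodes come from expression or from RNA outside cells was not tested. The other members in the T gate also lay below it, with intervals apart in 4 to 6 of 6 libraries, except that CD79A on day 0, at 8 UMIs, was 1.69 times the background with intervals that overlap. LYN in the myeloid gate was 2.59 to 4.61 times the background, above it in 4 of 4 libraries. Myeloid BTK and SYK were above it with intervals apart in 2 and 1 of 4 libraries. Epithelial BLNK was 0.328 to 1.73 times the background, above it with intervals apart in 2 of 5 libraries and below it in 1. Epithelial LYN, at 0.512 to 1.05 times the background, was above it in 0 of 5 and below it in 2. Epithelial PLCG2 was below it in 4 of 5. Epithelial CD79B was at 0.0544 to 0.0681 of the background, below it in 5 of 5.

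A list of 49 other genes of B cell receptor signalling was set up by role. Of these, 46 were in the files and 45 were tested. Against T, 14 were called higher, 4 lower and 27 neither, with a median log2 fold change of 0.51. Among the most raised were FCRLA at 4.99 ± 0.31, FCGR2B (the inhibitory Fc receptor) at 4.69, BANK1 (a scaffold) at 3.89 and RASGRP3 (which activates Ras) at 3.45. Those lowered were the phosphatase PTPN22 at -4.82, the kinases FYN at -4.51 and FGR at -2.06, and PIK3R1 at -2.32. By role, 4 of 6 adaptors, 3 of 9 kinases, 2 of 6 exchange factors and 4 of 8 inhibitory genes were higher, and 0 of 13 downstream genes (among them MALT1, the NFAT genes and NFKB1) were called in either direction. Over all genes 8.68% were higher and 9.1% lower in this comparison, so the count of lower genes is near that share. Against epithelial 32 of 45 were higher and 1 lower, where 18.6% of all genes were higher and 27.4% lower. Against myeloid 10 of 45 were higher and 6 lower, where 11.1% of all genes were higher and 15.7% lower, so the count of lower genes is near that share.

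**Figure D3:**
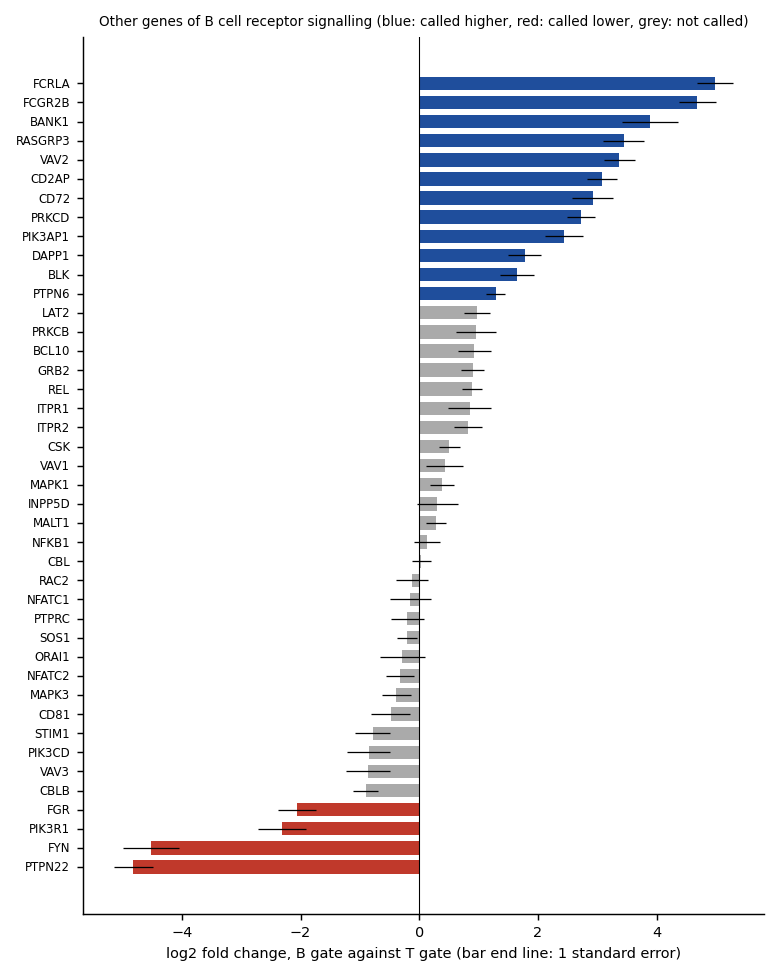
Fitted log2 fold change, B gate against T gate, of 42 of the 45 other pathway genes tested, with 1 standard error. Blue bars (12) were called higher, red bars (4) lower and grey bars (26) neither, and FCRLA and FCGR2B are at the top with PTPN22 and FYN at the bottom.

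T cells run a parallel relay with related proteins, and these were compared in the same libraries. LCP2, the T cell counterpart of BLNK, was at 1.30 to 3.14 UMIs per 10000 in the T gate and at 0.0193 to 0.0884 in the B gate. PLCG1 was at 0.184 to 0.590 in T and 0.0115 to 0.0275 in B. For both the gates do not overlap, and the log2 fold changes, B over T, were -5.20 and -3.86. UMIs of PLCG2 were counted in the T gate as well, as given above, but below the level in barcodes with 100 UMIs or fewer.

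Separation was weaker for LCK and CD247, the counterparts of LYN and of the CD79 pair. LCK was at 1.54 to 4.0 in T and 0.286 to 0.600 in B, which do not overlap, with a fold of -2.58 ± 0.18. The B-gate levels of LCK were not above those in barcodes with 100 UMIs or fewer beyond their intervals at any age (0.286 against 0.288 on day 0, 0.427 against 0.533 on day 21). CD247, the zeta chain of the T cell receptor, was at 2.45, 1.87, 3.40, 4.30, 4.80 and 4.56 in T and at 0.375, 0.256, 0.495, 1.08, 1.73 and 1.91 in B. The highest B value lay just above the lowest T value, so the gates overlap across ages, though T was higher in each library and the fold was -2.08 ± 0.34 (edgeR adjusted p = 1.99e-04). In barcodes with 100 UMIs or fewer CD247 was at 0.329, 0.238, 0.493, 0.939, 1.60 and 1.77, and the B gate exceeded this with intervals apart only on day 7. Within the B gate, CD247 in the germinal centre state was at 2.06, 1.59, 1.06, 1.83, 2.26 and 2.20, and in the resting state at 0.236, 0.174, 0.368, 0.405, 0.745 and 0.523. Each germinal centre value exceeded every resting value, and the fold of 1.84 ± 0.18 was called (edgeR adjusted p = 1.44e-08). LCK was not called there (0.25 ± 0.15). The T marker list ran from 1.40 to 2.93 in the germinal centre state and from 0.632 to 1.18 in the resting state. It holds LCK and CD247 themselves, so it is no separate measure of T cell RNA here. On day 0 it was at 2.62 in the germinal centre state, with CD247 at 2.06 and LCK at 0.463. In at least 1 germinal centre sum 5 of its 8 genes were at 0. The part of T cell RNA was not tested. ZAP70, the relative of SYK, was not analysed here.

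**Figure D4:**
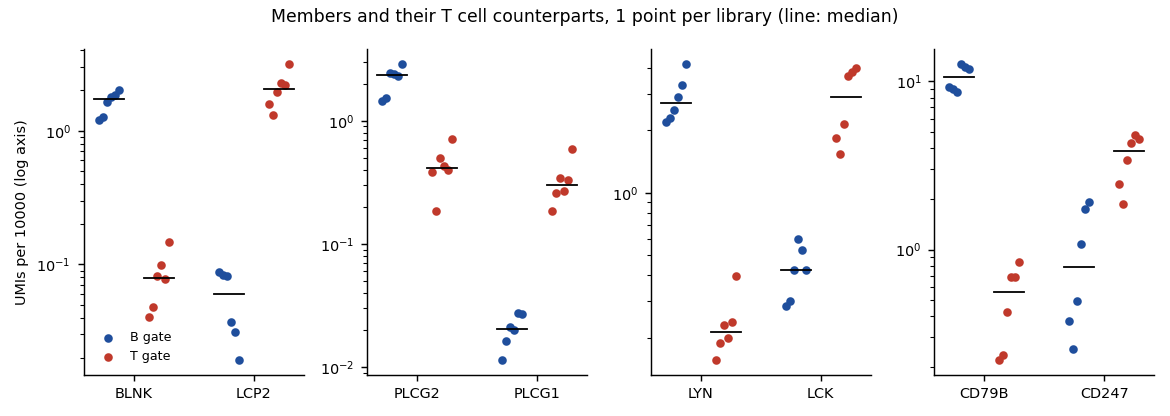
UMIs per 10000 (log axis) of 4 members and their T cell counterparts in the B gate (blue) and the T gate (red), with 1 point per library and a line at the median. In each panel the member has B above T and the counterpart T above B, and only for CD247 do the B and T points overlap.

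With age, all 9 genes stood higher in the B gate on day 21 than on day 0, with intervals apart for each. The share of all genes with intervals apart was not counted, so this count of 9 has no measure beside it. MS4A1 differed most, at 3.12 times its day 0 level, followed by CD79A (2.21), PLCG2 (1.98), LYN (1.90), CD22 (1.75), SYK (1.71), BLNK (1.66), BTK (1.37) and CD79B (1.28). There is 1 library for each age, so no test between ages could be made, and age cannot be told apart from library. Of the 9, 7 were at least 1.5-fold higher, but so were 38.8% of the 12467 genes, while 27.2% were at least 1.5-fold lower. The median ratio was 1.75 for the members and 1.26 for all genes. For each member the intervals of day 0 and day 1 overlap.

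The step was not at the same age for every gene. MS4A1 took its largest step between day 3 and day 7, at 2.14-fold, as did CD22, at 1.32-fold. CD79B also stepped there, at 1.46-fold, before going down slightly to day 21. CD79A, SYK, PLCG2, BLNK and BTK took their largest step between day 1 and day 3, by 1.97, 1.65, 1.60, 1.29 and 1.26. LYN took its largest between day 14 and day 21, at 1.26. CD79A was highest on day 3, CD79B on day 7 and SYK on day 14. The other 6 were highest on day 21. CD79A intervals of days 3 and 7 overlap, and so do BTK intervals of days 7 and 21.

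Shares of B-gated barcodes with a UMI were compared with and without thinning. MS4A1 was found in 63.2% of B-gated barcodes on day 0 and 91.7% on day 21, and after thinning in 26.3% and 61.4%. LYN went from 53.1% to 78.6%, and after thinning from 20.7% to 35.3%. CD79B was found in 93.3% and 96.7%, near the ceiling, and after thinning in 60.8% and 69.8%.

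Other values moved with age too. The gate gene PAX5 was at 2.68 UMIs per 10000 in the B gate on day 0 and 6.88 on day 21 (2.57-fold), POU2AF1 at 5.77 and 6.69, and the B gene CD37 at 4.17 and 3.84. In barcodes with 100 UMIs or fewer all 9 members were higher on day 21 than on day 0. Their part in the age difference was not tested. The states also shifted, since the resting gate held 977 of 1502 B-gated barcodes on day 0 and 146 of 11866 on day 21, and the germinal centre gate 40 and 5764. With barcodes of more than 1 gate kept, the day 21 over day 0 ratios were larger, at 4.17 for MS4A1, 1.70 for CD79B and 1.83 for BTK.

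The MS4A1 step was present within the resting, cycling and germinal centre states. From day 3 to day 7 its level went from 3.75 to 6.87 in the resting state (1.83-fold), from 4.67 to 9.11 in the cycling state (1.95-fold) and from 4.68 to 11.8 in the germinal centre state (2.51-fold). In the secretory state it went from 4.55 to 5.0 (1.10-fold), with intervals that overlap. The part of the shift in states in the step was not tested. In LYN the difference between day 0 and day 21 was 1.37-fold within the resting state and 1.14-fold within the germinal centre state, whose day 0 sum rests on 40 barcodes. It was 1.91-fold in B-gated barcodes of no state gate and 1.90 in the whole B gate. BLNK on day 21 was at 1.06 of its day 0 level in resting and 1.03 in germinal centre barcodes. The ratio was 1.66 in the whole gate and 1.34 in barcodes of no state gate. Between these ages BLNK was not level, since day 21 over day 3 was 0.796 in resting, 1.29 in germinal centre and 0.715 in cycling barcodes. For CD79B day 21 over day 0 was 1.19 in resting barcodes and, in the other direction, 0.934 in germinal centre barcodes. Over the members the day 21 over day 0 ratios ran from 1.06 (BLNK) to 2.63 (MS4A1) in resting barcodes, and from 0.934 (CD79B) to 2.60 (BTK) in germinal centre barcodes, where CD79A was at 0 on day 0.

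B cell states were set by 4 gates within the B gate, and barcodes that met exactly 1 were used. Cycling barcodes (1943) had at least 3 UMIs of MKI67 and TOP2A, germinal centre barcodes (11913) at least 2 of a pair of genes that includes GCSAM, secretory barcodes (580) at least 4 of TXNDC5 and PRDM1, and resting barcodes (6337) at least 3 of a set that includes CCR7 and KLF2. Another 13825 met none of these and 10178 several. Sums of states again needed 20 barcodes, which left out the cycling state on day 0 (9 barcodes) and the secretory state on days 0 and 1 (2 and 6). Among the remaining sums of the 4 states, each marker list was highest in the state it is named for, though not all by a wide margin. A secretory list (XBP1, JCHAIN, IRF4 and SDC1) was at 18.4 to 71.7 UMIs per 10000 in the secretory gate and 1.42 to 3.34 in the resting gate. A cycling list (CDK1, CCNB1, UBE2C and BIRC5) was at 6.84 to 12.3 in cycling and 0.177 to 0.767 in resting. A germinal centre list (BCL6, S1PR2, RGS13 and MEF2B) was at 3.30 to 6.72 in germinal centre and 0.612 to 2.53 in resting barcodes, but on day 14 it was at 6.31 in germinal centre, 5.71 in cycling and 5.72 in barcodes of no state gate. A resting list (S1PR1, GPR183, FCER2 and CD44) was at 3.30 to 5.46 in resting barcodes, and on day 3 at 3.37 there and 3.11 in secretory barcodes. Median UMIs per barcode were 5225.5 to 8177.5 in cycling, 3601.5 to 7206 in germinal centre, 5807 to 8768 in secretory and 3355 to 4341 in resting barcodes, and their part was not tested.

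No member was called in cycling against resting or in germinal centre against resting barcodes. Germinal centre and cycling barcodes were not compared with each other. Of 9608 genes tested, 6.41% were higher and 9.89% lower in cycling than in resting barcodes, and 5.59% and 9.89% in germinal centre barcodes. By edgeR 4 and 5 members had an unadjusted p under 0.05, and DESeq2 also called 0. Differences that passed the adjusted p but not the fold limit included CD79A in cycling barcodes, at -0.51 ± 0.20 on the log2 scale (edgeR adjusted p = 0.0447), CD79B in cycling barcodes, at -0.49 ± 0.09 on the log2 scale (edgeR adjusted p = 5.12e-05), and MS4A1 in germinal centre barcodes, at 0.43 ± 0.11 (edgeR adjusted p = 0.00276). CD79B was at 8.21, 8.11, 10.1, 10.4 and 8.71 in cycling barcodes of days 1 to 21 and at 8.96, 9.26, 12.7, 11.7 and 10.4 in resting barcodes, lower in each library. MS4A1 was higher in germinal centre than in resting barcodes in each of 6 libraries, with 6.59, 5.60, 4.68, 11.8, 11.3 and 10.8 against 2.76, 3.17, 3.75, 6.87, 7.85 and 7.27. LYN was at 3.86, 3.95, 2.34, 3.63, 3.64 and 4.38 in germinal centre and 2.16, 2.24, 2.72, 2.46, 2.28 and 2.96 in resting barcodes, higher in all libraries but day 3, and its fitted difference of 0.25 ± 0.12 did not pass (edgeR adjusted p = 0.101). The fitted values rest on edgeR's scaling factors: with library size alone the median of all genes moved from -0.06 to 0.24 in cycling and from -0.02 to 0.22 in germinal centre barcodes, and the share of called genes that were higher went from 39.3% to 62.0% and from 36.1% to 53.4%.

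**Figure D5:**
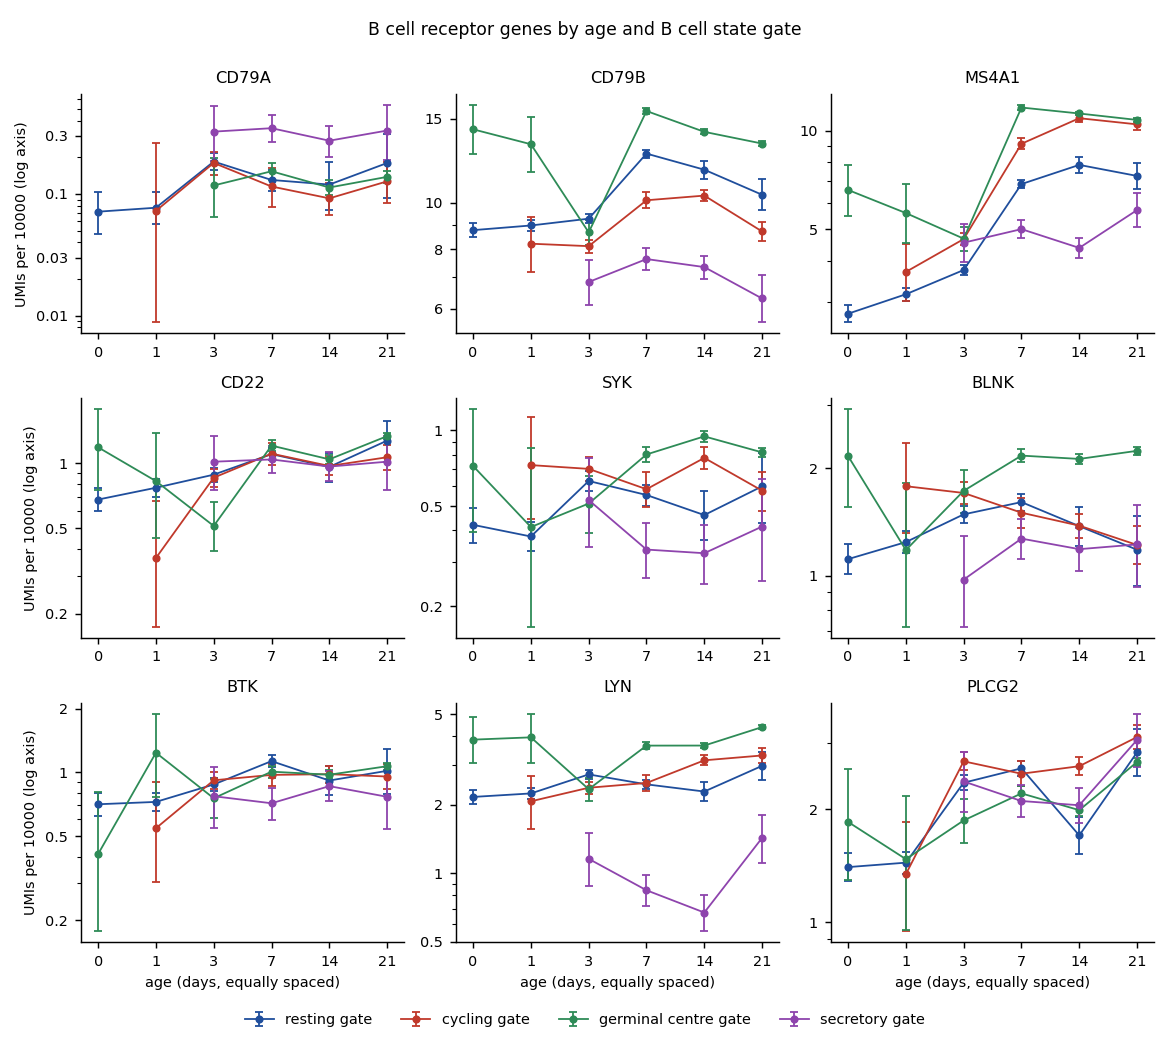
UMIs per 10000 (log axis) of each gene against age in days, equally spaced, in the resting, cycling, germinal centre and secretory states of the B gate. Points are libraries with at least 20 barcodes, bars are 95% Poisson intervals, and the secretory state lies lowest for LYN (0.673 to 1.43) and highest for CD79A (0.274 to 0.347).

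Secretory B cells, which are on the way to antibody release, differed from resting cells in LYN and CD79A, in opposite directions. LYN was lower, at 1.16, 0.843, 0.673 and 1.43 UMIs per 10000 on days 3, 7, 14 and 21, against 2.72, 2.46, 2.28 and 2.96 in resting barcodes. Every secretory value lay below every resting value, and the fold was -1.33 ± 0.16 (edgeR adjusted p = 3.84e-07). In barcodes with 100 UMIs or fewer LYN was at 1.36, 1.46, 2.33 and 2.98 on these days, above the secretory value each time and about level with the resting value on days 14 and 21. CD79A was higher, at 0.325, 0.347, 0.274 and 0.332 against 0.184, 0.130, 0.119 and 0.179, with every secretory value above every resting value. Its fold was 1.23 ± 0.22 (edgeR adjusted p = 1.08e-04). Without day 7 it was 1.0 and just missed the fold limit. The erythroid list moved with this contrast: it summed to 0.108, 7.84, 0.142 and 23.4 UMIs per 10000 in resting barcodes of days 3, 7, 14 and 21 and to 0.0406, 0.192, 0.0741 and 0.311 in secretory barcodes, where 2 of its 3 genes were at 0. The CD79A values of days 3 and 14 rest on 16 and 48 secretory UMIs, with an interval of 0.186 to 0.528 on day 3. Without day 21 the folds of LYN and CD79A were -1.48 and 1.23. The part of the erythroid list in this contrast was not tested. In the same contrast 8.0% of all genes were called higher and 8.07% lower. The counts of 1 of 9 members higher and 1 lower are near those shares.

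CD79B, the partner of CD79A, went the other way in secretory barcodes, at 6.82, 7.62, 7.33 and 6.30 against 9.26, 12.7, 11.7 and 10.4 in resting barcodes, lower in each library. Its fitted difference was -0.52 ± 0.09 (edgeR adjusted p = 1.25e-04), under the fold limit. In barcodes with 100 UMIs or fewer CD79B was at 6.62, 10.3, 11 and 11 on these days, above the secretory values of days 7, 14 and 21 with intervals apart, and also above the resting value of day 21 and the cycling values of days 7, 14 and 21, not all with intervals apart. The other members did not pass, with SYK at -0.46 ± 0.19 and MS4A1 at -0.23 ± 0.13 (edgeR adjusted p = 0.0687 and 0.183). Of the 44 other pathway genes tested, 3 were called higher in secretory barcodes (RASGRP3 and PRKCD among them) and 8 lower (NFATC1, REL, FCGR2B, PTPN22, VAV3, BANK1, ITPR1 and CBLB). Germinal centre barcodes had 4 higher (FCRLA, CD2AP and DAPP1 among them) and 4 lower (PTPN22, VAV3, BANK1 and ITPR1), and cycling barcodes 1 higher (CD2AP) and 5 lower (PTPN22, VAV3, FGR, BANK1 and ITPR1). Over all genes 8.0% were higher and 8.07% lower in secretory, 5.59% and 9.89% in germinal centre and 6.41% and 9.89% in cycling barcodes. The counts of lower pathway genes in germinal centre and cycling barcodes, and of higher ones in secretory barcodes, are near these shares.

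Over the 21 sums of lineage and library, the members moved together to different degrees. The correlation of each member with the mean z score of all 9 was highest for CD22 (Pearson r = 0.97) and lowest for LYN (r = 0.70) and BLNK (r = 0.83). Among 11815 other genes, those most like the mean of the 9 members were SWAP70 (r = 0.97), TNFRSF13C (0.97, the receptor for the survival factor BAFF), LOC100152824 (0.96), LOC100158069 (0.95) and ELL3 (0.95). These are descriptions over sums that share libraries and differ in depth, and most of the spread is that between gates.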

How the data were processed

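Cells of the piglet ileum were profiled with the 10x Genomics 3′ system in 6 libraries, 1 per age. The labels name a V3 kit and the paper's methods an earlier version. The authors counted UMIs with Cell Ranger 3.1.0 and STAR on susScr11 (Sscrofa11.1), per the submitters' processing notes. The deposited matrices hold whole UMI counts for each of 6794880 barcodes a library, with neither filtering nor scaling. No cell annotation was used. No doublet caller was run, and barcodes of more than 1 lineage gate were set apart. Counts were summed per library and gate and tested with edgeR 4.0.16 (quasi-likelihood, TMM, filterByExpr, library as block, gate genes left out) in R 4.3.3, with DESeq2 1.42.0 as an alternative. The standard error is the fold change divided by the t value of its p. The procedure was checked on simulated data. Shares were also computed after thinning barcodes to 1000 UMIs. Positions come from a RefSeq table of Sscrofa11.1, in which all 20648 symbols were found. The T and epithelial gates, the B gate and the 9 members were given, the myeloid and state gates were added, and members and lists were chosen with earlier results of these data known. The text names all members, the 5 pathway genes of largest positive and of largest negative fold among those called against T (only 4 were negative), the T cell counterparts and the 5 genes most like the members (on log2(UMIs per 10000 + 0.1), genes with at least 500 UMIs). Some genes of the gates, lists and counterparts entered the computation but are not reported here. Pathway genes called between states, and those behind role counts, were named after their values were seen. Alternatives were RLE factors, DESeq2, no low-count filter, no block, leaving out each library, mixed barcodes kept, 2000 UMIs and 1000 genes, 1 UMI of each B gate gene, a mitochondrial share under 25% and a mean over barcodes. Library size alone and ratios in each library were added after seeing the data.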

Additional observations from a re-analysis of the deposited data

Results flagged for a closer look

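Barcodes that met no lineage gate entered no comparison, and they carried the members above the level in barcodes with 100 UMIs or fewer in 5 of 6 libraries. The 9 genes summed to 7.34 UMIs per 10000 on day 0 against 3.71, to 8.65 on day 1 against 4.46, to 24.7 on day 7 against 18.9, to 26.8 on day 14 against 24.1 and to 34.2 on day 21 against 26.7. On day 3 they summed to 11.9 against 13.6. The B marker list ran from 5.08 to 16.9 in these barcodes. CD79B was at 3.23 in them on day 0 against 9.27 in the B gate, and at 12.1 on day 21 against 11.8.

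The direction of 3 state differences changed between ages, with intervals apart at both ages, and the change itself was not tested. LYN in cycling over resting barcodes was at a ratio of 1.37 on day 14 and 0.874 on day 3. PLCG2 in germinal centre over resting barcodes was at 1.17 on day 14 and 0.793 on day 3. MS4A1 in secretory over resting barcodes was at 1.21 on day 3 and 0.558 on day 14.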

How the results depend on the processing

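Counts of members called kept their value in all alternatives run except against myeloid (6 to 7 with 1 library left out, 6 with mixed barcodes kept), for those at least 1.5-fold higher on day 21 (7, but 9 with mixed barcodes kept) and in secretory against resting barcodes (0 to 1, with 0 higher without day 7). Fitting with no replicate block left 9 members higher against T and against epithelial and 7 against myeloid, and changed no member's call; the library is the pairing of the gates. Keeping mixed barcodes took genes called higher against T from 1082 to 678, and leaving out 1 library gave 906 to 1207. With 1 library left out, genes called higher against epithelial ranged from 2232 to 3552 (3552 without day 3). In secretory against resting they ranged from 512 to 895 (512 without day 7). Against epithelial, RLE factors gave 2166, DESeq2 2110 and library size alone 1994. With library size alone, cycling against resting had 982 higher and 601 lower (616 and 950 with scaling factors, 599 to 724 and 801 to 979 with 1 library left out), and germinal centre had 834 higher (537 with factors).

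Differences of members that turned direction were all uncalled and small. With library size alone these were BLNK 0.12, LYN 0.11 and PLCG2 0.20 in cycling, CD22 0.034 in germinal centre and CD22 -0.049 in secretory barcodes. With no filter on low counts CD22 in secretory barcodes was -0.025. With 1 library left out, SYK in cycling barcodes ranged from -0.069 to 0.13 (-0.047 without day 1, -0.069 without day 14), CD22 in secretory barcodes from -0.016 to 0.089 (-0.016 without day 14) and BLNK in secretory barcodes from -0.27 to 0.019 (0.019 without day 3). The cause was not tested. Over all members and alternatives 716 fitted values kept direction and side of the threshold, 3 no longer passed it and 10 turned direction. Depth limits CD79A most, with 3180 UMIs in the B gate, and the myeloid comparison rests on 4 libraries.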
